A study of Mus musculus with 9 samples.

Results

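Open chromatin at the genes of the Mediator complex was described in mouse breast carcinoma cells carrying hairpins against 1 of its subunits, Med1. The list held 33 genes: 7 of the head module, 9 of the middle, the scaffold subunit Med14, 9 of the tail and 7 of the kinase module. A peak went to a member when its centre lay inside the gene, and otherwise when the nearest end of a protein-coding gene within 50 kb belonged to a member. This gave 156 of the 75936 peaks in the table, 103 inside a member and 53 beside one, at 31 of the 33 genes. Med19 and Med20 received no peak, because the peaks at their starts went to Tmx2 and Bysl. A gene-end peak here had its centre within 1 kb of either end of its gene or of a RefSeq start of that gene. There were 33, at 29 genes. The other 123 peaks lay further inside a gene (86, gene body) or outside it (37, flanking). Each peak spans 501 bases, so levels can be compared between peaks, and all 156 passed the minimum mean of 10 normalized counts.

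Mediator is the coactivator that carries signals from DNA-bound transcription factors to RNA polymerase II. The head and middle modules contact the polymerase, Med14 holds the core together, and the tail carries most of the surfaces that activators bind. The kinase module, made of CDK8 or its paralogue CDK19, cyclin C, MED12 or MED12L and MED13 or MED13L, binds the core reversibly and hinders its contact with the polymerase while bound. MED1 is the docking site for nuclear receptors, and in breast cancer cells it is known for its work with the estrogen receptor. The start of a transcribed gene is usually kept free of nucleosomes, and ATAC-seq, in which a transposase cuts and tags exposed DNA, reads such regions as peaks.

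The 9 libraries came from D2A1-d, a cell line that the labels call a murine breast carcinoma and give as WT in genotype. All are labelled untreated and had been transduced with an shRNA: 3 libraries carry the non-targeting one (NTC), 3 carry the hairpin shMed1 #2, and 3 carry shMed1 #4. No source used here says whether a group was a clone or a pool. The series belongs to a study of MED4 and dormancy in metastasis, and the question addressed here is what hairpins against Med1 do to open chromatin. The labels number biological replicates without describing the cultures, so a p-value reflects the spread among these libraries alone, which may be technical. Each library had 34.8 to 53.7 M reads in peaks, and the median peak held 162 to 252 reads. Totals of the normalized counts were 41.2 to 41.5 M in NTC and 43.1 to 44.2 M with the hairpins. Of the defining markers, 4 of 5 mesenchymal genes had a gene-end peak (Vim the highest, at a mean of 4492) and 1 of 5 epithelial genes did (Krt18, at 168); Epcam, Cdh1, Krt8 and Cldn4 had none. Gene-end peaks of blood markers were present for 3 of 6 genes, of endothelial for 1 of 4, of fat for 1 of 3 and of neural for 2 of 3, at means from 57.9 to 703. Their part in the results was not tested.

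For 11 members a peak covers most or all of the 250 bases before a start and no annotated gene overlaps them. The sequences of the 6 among them whose peak was lower with the hairpins are shown (Med6, Med18, Med4, Med26, Med12 and Med21), beside 2 of the 5 whose peak did not pass the test (Ccnc and Med17), picked with their values known. Each is the 250 bases up to the RefSeq start, written 5′ to 3′ on the gene's own strand in GRCm38.p6, with matches to 8 short motifs in capitals.
Med6 promoter: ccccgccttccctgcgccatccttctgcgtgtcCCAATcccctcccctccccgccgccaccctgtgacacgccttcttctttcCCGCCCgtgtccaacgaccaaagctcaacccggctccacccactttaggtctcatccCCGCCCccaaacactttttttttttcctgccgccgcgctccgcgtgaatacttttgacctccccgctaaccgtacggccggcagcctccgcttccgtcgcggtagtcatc
Med18 promoter: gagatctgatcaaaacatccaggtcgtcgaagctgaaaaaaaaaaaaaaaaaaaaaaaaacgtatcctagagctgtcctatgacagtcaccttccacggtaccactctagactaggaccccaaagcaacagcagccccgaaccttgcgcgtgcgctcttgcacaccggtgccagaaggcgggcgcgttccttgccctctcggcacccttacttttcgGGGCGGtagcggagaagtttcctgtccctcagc
Med4 promoter: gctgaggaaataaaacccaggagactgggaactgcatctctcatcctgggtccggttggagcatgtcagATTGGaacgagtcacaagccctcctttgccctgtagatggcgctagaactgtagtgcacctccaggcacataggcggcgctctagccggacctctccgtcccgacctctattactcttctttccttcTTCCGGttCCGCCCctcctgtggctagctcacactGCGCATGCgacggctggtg
Med26 promoter: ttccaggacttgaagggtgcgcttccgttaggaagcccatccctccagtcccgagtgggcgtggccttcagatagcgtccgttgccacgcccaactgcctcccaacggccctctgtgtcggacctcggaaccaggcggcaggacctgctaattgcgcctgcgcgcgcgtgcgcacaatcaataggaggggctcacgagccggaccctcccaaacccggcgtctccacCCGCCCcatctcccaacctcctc
Med12 promoter: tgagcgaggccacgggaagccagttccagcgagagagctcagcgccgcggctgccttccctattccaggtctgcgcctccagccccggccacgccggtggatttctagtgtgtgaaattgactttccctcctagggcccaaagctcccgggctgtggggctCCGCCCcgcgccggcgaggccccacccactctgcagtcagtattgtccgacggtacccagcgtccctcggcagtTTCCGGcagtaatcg
Med21 promoter: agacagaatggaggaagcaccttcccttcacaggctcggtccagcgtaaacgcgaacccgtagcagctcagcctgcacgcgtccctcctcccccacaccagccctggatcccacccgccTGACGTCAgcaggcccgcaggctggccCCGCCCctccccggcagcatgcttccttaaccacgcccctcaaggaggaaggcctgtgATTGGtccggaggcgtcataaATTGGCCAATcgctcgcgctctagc
Ccnc promoter: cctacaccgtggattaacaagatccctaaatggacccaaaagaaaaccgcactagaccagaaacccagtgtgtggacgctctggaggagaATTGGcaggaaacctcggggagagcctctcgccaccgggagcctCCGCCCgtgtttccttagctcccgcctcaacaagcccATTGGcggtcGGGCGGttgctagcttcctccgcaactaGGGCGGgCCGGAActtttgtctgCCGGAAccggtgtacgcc
Med17 promoter: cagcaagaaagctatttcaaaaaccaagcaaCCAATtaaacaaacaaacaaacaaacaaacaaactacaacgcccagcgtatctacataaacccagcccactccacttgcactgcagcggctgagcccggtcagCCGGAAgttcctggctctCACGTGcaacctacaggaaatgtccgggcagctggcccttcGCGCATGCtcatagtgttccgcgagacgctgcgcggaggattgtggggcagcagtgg
In the same order they lie at chr12:81595009-81595258, minus strand; chr4:132463922-132464171, minus strand; chr14:73509799-73510048, plus strand; chr8:72548311-72548560, minus strand. The others lie at chrX:101273841-101274090, plus strand; chr6:146642329-146642578, plus strand; chr4:21727451-21727700, plus strand; chr9:15279907-15280156, minus strand. The motifs, searched on both strands, were CCAAT (the NF-Y box), GGGCGG (the GC box of SP factors), CCGGAA (the ETS core), TGACGT (the CRE core), GCATGCGC (of the NRF1 type), AAGATGGC (of the YY1 type), CACGTG (the E-box) and the motif of the TATA box, TATAAA. A match on the other strand is printed as its reverse complement. TGACGTCA in Med21 holds 1 match on each strand.

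RefSeq promoters were matched for 28 of the 33 members, all but Med8, Med23, Med24, Med30 and Cdk19. GGGCGG was found before at least 1 start of 19 of the 28, against 32.7% of all 32851 promoter windows of 250 bases. CCGGAA was found for 10 (12.0% of all windows), CCAAT for 11 (33.8%), TGACGT for 4 (6.47%) and GCATGCGC for 3 (2.26%). TATAAA was found for 3 (12.4%), CACGTG for 2 (6.02%) and AAGATGGC for 1 (1.56%). Some members have more than 1 start, and the shares over all windows include genes with no peak, so the counts are a description. Among the printed promoters, lower peaks and peaks that did not pass the test both held the GC box, the NF-Y box and the ETS core: Ccnc had 3, 2 and 2 matches in this order, and Med4 had 1 of each. GCATGCGC stood in Med4, whose peak was lower, and in Med17, whose peak was not called. The other uncalled ones of the 11 held 2 GC boxes (Med9), 1 NF-Y box and 1 CRE core (Med27), and 1 NF-Y box and 1 TATAAA match (Med28). Among members outside the 11 with a lower peak, Med16 held a TATAAA match on the other strand and none of the other motifs. Its peak reaches only the last bases of its promoter. Med25, whose promoter overlaps its own annotated gene, held none of the 8. Others with a lower gene-end peak held matches: Med22 2 and Med13 7 to GGGCGG, and Med31 1 each to TGACGT and AAGATGGC. Before 1 of its starts, Med15 held 2 to CCGGAA and 1 to GCATGCGC. Matches are to the letters only, and their function was not tested.

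At the ends of Mediator genes the peaks that changed were lower with the hairpins, with 1 exception, and elsewhere at the same genes most of those that changed were higher. A peak is called higher or lower where limma's adjusted p over 75930 peaks was under 0.05. With the mean of both hairpins set against NTC, 14 of the 33 gene-end peaks were lower and 1 was higher (the Med13l start), with a median log2 fold change of -0.13. Over all gene-end peaks of the table, 32.7% were lower and 14.3% higher, with a median of -0.07. Of the 123 other Mediator peaks, 31 were higher and 12 lower, with a median of 0.06; over all other peaks 23.6% were higher and 14.8% lower, with a median of 0.01. In shares, 42.4% of the Mediator gene-end peaks were lower and 3.03% higher, and 25.2% of the others were higher and 9.76% lower. In the whole table, too, gene ends were lower more often than higher. Its gene-end peaks lay within 1 kb of an end of any protein-coding gene, with no further RefSeq starts counted. Its other peaks include those given to no gene, and no Mediator peak is of that kind. The shares are therefore of classes that are not quite alike. Over the 156 peaks together, 32 were higher and 26 lower, against a background of 22.1% higher and 17.7% lower; without NTC replicate 3 the lower count was 17, and over all peaks it went from 13452 to 8325. In bulk libraries fewer open cells and less cutting per cell cannot be told apart.

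The totals of the normalized counts moved with the groups, so the counts were also made after scaling every library to an equal total. Over all 75930 peaks the median log2 fold change was then -0.09, against -0.01, with 12104 peaks higher and 21010 lower, against 16796 and 13452. Gene-end peaks were then lower at 22 and higher at 1, and other Mediator peaks were higher at 25 and lower at 21. With quantile normalization the gene-end counts were 19 lower and 1 higher, and the others 31 higher and 12 lower, while over all peaks 14947 were higher and 15203 lower. For the 156 peaks together this gave 26 higher and 43 lower with equal totals and 32 higher and 31 lower with quantile normalization. The median of the gene-end peaks was -0.21 and -0.20 under these scalings, and that of the other peaks was -0.02 with equal totals and 0.08 with quantiles. Under these scalings no shares were counted over all gene-end peaks or over all other peaks. The Mediator counts there cannot be told apart from a shift of such peaks over the whole table.

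**Figure D1:**
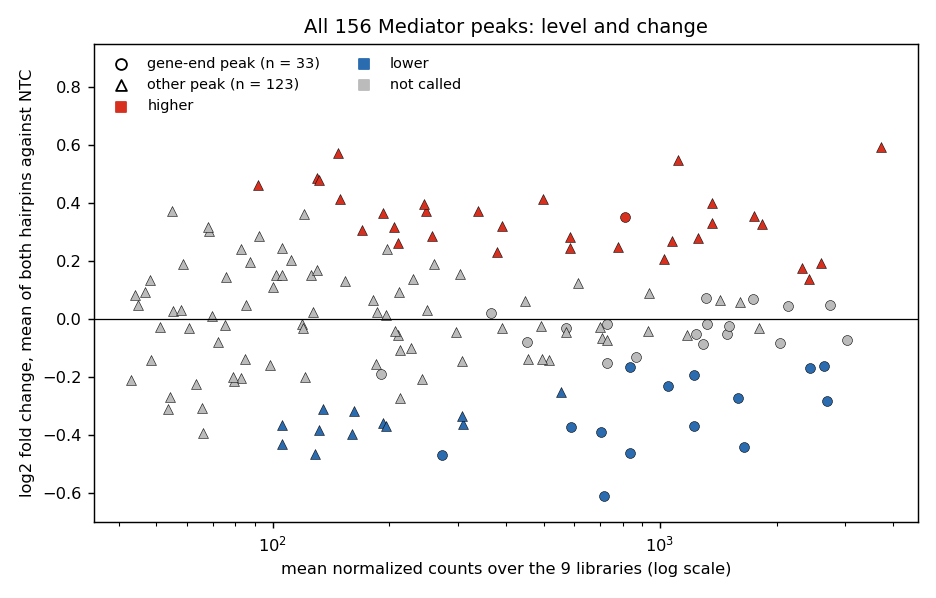
Mean normalized counts over the 9 libraries (log axis) against the log2 fold change of both hairpins' mean over NTC, for the 156 Mediator peaks; circles are gene-end peaks (n = 33), triangles other peaks (n = 123), and colour marks the call at an adjusted p of 0.05. Called circles lie below 0 except for Med13l, and most called triangles lie above 0.

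With #2 alone, 1 gene-end peak was higher and 17 lower, against 12.0% and 35.4% of all gene-end peaks. With #4 alone, 2 were higher and 12 lower, against 14.3% and 22.5%. Over all Mediator peaks, #2 gave 37 higher and 30 lower (background 23.6% and 19.5%), and #4 gave 24 higher and 21 lower (background 17.3% and 12.1%). Without NTC replicate 2, or without NTC replicate 3, the lower count for #4 was 10; over all peaks it went from 9152 to 5819 and 5500. Both hairpins were compared with the same 3 NTC libraries, so these counts are not independent of each other. By gene, 9 members had lower calls only, 6 had higher calls only, 7 had both and 9 of those with peaks had none. Members with peaks held from 1 (Med22) to 23 (Med12l). No such count was made over all genes, so these counts are a description only. Among NTC libraries the coefficient of variation had a median of 4.30% at gene-end peaks and 8.06% at the others.

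The strongest gene-end peak of each of the 29 genes was ordered by its NTC mean, with no correction for base composition. Cdk19 was highest at 3137 ± 108 normalized counts (SD, n = 3), followed by Med26 at 3067 ± 161, Med15 at 2845 ± 138, Med11 at 2685 ± 22.0 and Med21 at 2627 ± 113. Med4 at 691 ± 7.96, Med13l at 684 ± 32.4 and Med28 at 579 ± 21.7 closed the order. NTC ranges of neighbours overlapped at 21 of the 28 steps and did not at 7. The steps without overlap lay below Med21, Med30, Med23, Med17, Med24, Med10 and Med13l. The 5 highest came from the kinase, middle, tail and head modules, so no module filled the top of the order.

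**Figure D2:**
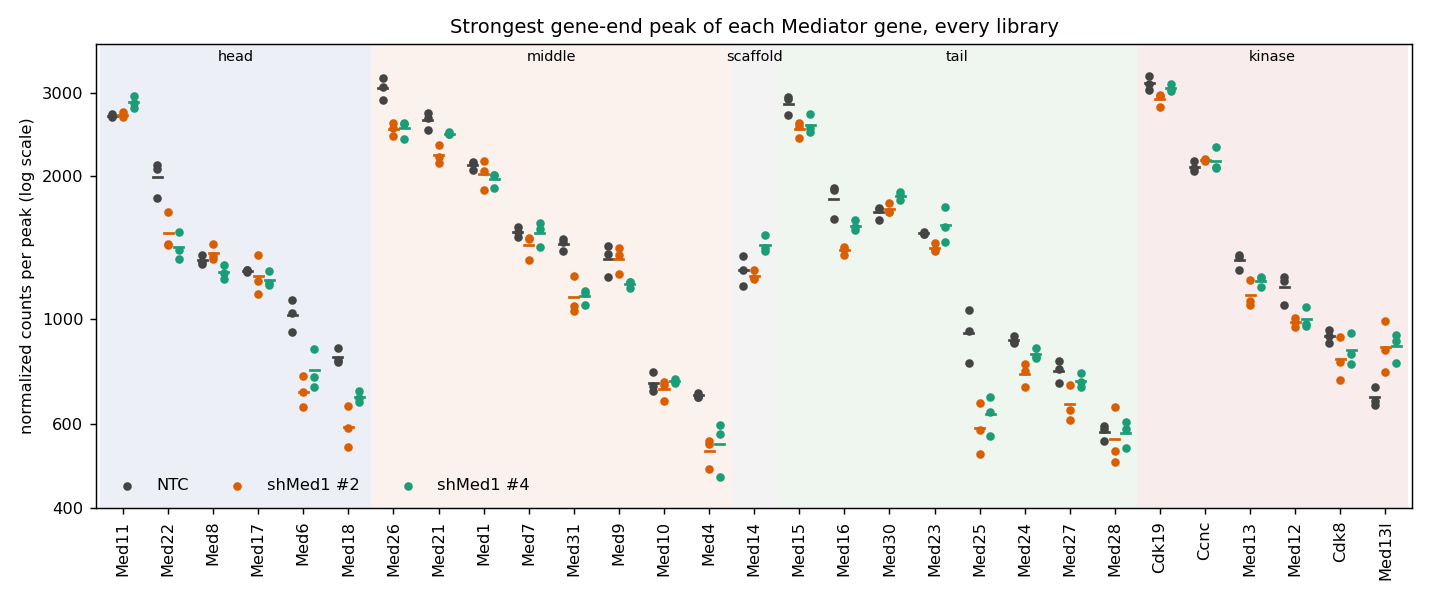
Normalized counts per peak (log axis) at the strongest gene-end peak of each of 29 Mediator genes, ordered within each module by the NTC mean; points are single libraries and bars the mean of 3. NTC points of Med6, Med18, Med22, Med4, Med31 and Med25, among others, lie above all points of both hairpins, and NTC points of Med13l lie below them.

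Levels below are normalized counts per peak in replicates 1, 2 and 3 of each group, or their mean ± SD (n = 3), and changes are log2 fold changes ± limma's standard error, against NTC unless stated. In the head module, 3 of the 6 gene-end peaks fell with the hairpins and none rose, and of the 3 other head peaks none passed the test. Over the whole table, 32.7% of gene-end peaks were lower and 14.3% higher, and 23.6% of other peaks were higher and 14.8% lower. The peak at the start of Med6, a conserved subunit at the junction of head and middle (chr12:81594986-81595487), stood at 937, 1028 and 1099 in NTC, 758, 701 and 652 with #2 and 756, 863 and 721 with #4. All 6 hairpin libraries were below all 3 NTC libraries, and the log2 fold change was -0.46 ± 0.06 (limma, adjusted p = 5.9e-08). The start of Med18, which with Med20 forms the movable jaw of the head (chr4:132463687-132464188), stood at 811, 871 and 819 in NTC, 655, 589.7 and 537 with #2 and 706, 668 and 681 with #4. Its groups did not overlap either, with a fold change of -0.49 ± 0.07 for #2 (adjusted p = 3.8e-07) and -0.28 ± 0.07 for #4 (adjusted p = 0.0029). The third was the start of Med22, a helical partner of MED11 (chr2:26910332-26910833), at 1802, 2070.3 and 2116 in NTC, 1679.8, 1443 and 1434 with #2 and 1526, 1396 and 1339.8 with #4, a fold change of -0.44 ± 0.05 (adjusted p = 2.1e-09). That peak also lies within 1 kb of an end of the ribosomal protein gene Rpl7a, so it cannot be given to either gene alone.

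The other head starts moved less. Med11 (chr11:70451932-70452433) was the highest head peak, at 2709, 2667 and 2678 in NTC, 2673, 2727 and 2697 with #2 and 2953, 2790.2 and 2851 with #4, and its log2 fold change was 0.05 ± 0.04 (adjusted p = 0.29). The NTC libraries overlapped the #2 libraries, and the #4 libraries were all above them. Its sign was negative with equal totals and with quantile normalization. Med17, the central subunit of the head (chr9:15279699-15280200), stood at 1264 ± 7.56 in NTC, 1231 ± 119.6 with #2 and 1212 ± 45.4 with #4 (SD, n = 3), and its groups overlapped (log2 fold change -0.05 ± 0.05, adjusted p = 0.45); with equal totals it passed as lower (-0.13, adjusted p = 0.040). Med8, which tethers the jaw, has a peak that cannot be given to it alone; the peak stood at 1330.4 ± 31.5, 1380.1 ± 54.7 and 1255 ± 42.1 in the same order (adjusted p = 0.82).

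In the middle module, 4 of the 8 gene-end peaks fell and none rose, against 32.7% lower and 14.3% higher of all gene-end peaks. Of the 15 other peaks 1 rose and 1 fell, against 23.6% higher and 14.8% lower of all other peaks. Med1 is the gene that the hairpins target. An RNA hairpin acts on the transcript, so accessibility at the gene does not check the knockdown, and RNA was not analysed here. The peak at the Med1 start (chr11:98192989-98193490) stood at 2066, 2141 and 2134 in NTC, 2152, 2049 and 1869 with #2 and 2013, 1887 and 2014 with #4, so that NTC and #2 overlapped and the #4 libraries were all below NTC. The log2 fold change was -0.08 ± 0.04 (adjusted p = 0.13), and -0.10 ± 0.05 for #4 alone (adjusted p = 0.14), so no change was called. It passed as lower with equal totals (-0.16, adjusted p = 0.0026), with quantile normalization (-0.17, adjusted p = 0.0010) and without #2 replicate 1 (-0.11, adjusted p = 0.038). The only other Med1 peak, in the gene body at chr11:98182116-98182617, had 144 ± 12.7 counts in NTC and a log2 fold change of 0.13 ± 0.11 (adjusted p = 0.37).

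The start of Med4, the subunit in the study's title and the partner of MED9 in the middle module, was lower with both hairpins. At chr14:73509727-73510228 the libraries stood at 687, 687 and 701 in NTC, 553, 546 and 484 with #2 and 574, 464 and 598 with #4. The 3 NTC values lay within a narrow span above every hairpin library. The log2 fold change was -0.39 ± 0.08 for #2 (adjusted p = 0.00013) and -0.35 ± 0.08 for #4 (adjusted p = 0.00094), or 0.773 times the NTC level for their mean. Leaving out each of the 9 libraries in turn gave mean changes from -0.41 to -0.32. A second peak, flanking the gene at chr14:73474725-73475226, had 216 ± 25.3 counts in NTC and a log2 fold change of -0.06 ± 0.11 (adjusted p = 0.71).

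Med26, Med31 and Med21 were the other middle starts that fell. Med26, which recruits elongation factors to the polymerase (chr8:72548195-72548696), stood at 2896, 3215 and 3089 in NTC, 2596, 2531 and 2435 with #2 and 2575, 2591 and 2400.3 with #4. Its fold change was -0.28 ± 0.05 for #2 and -0.28 ± 0.05 for #4 (adjusted p = 2.5e-06 and 5.3e-06), with no overlap between NTC and hairpin libraries. Med31, a small subunit that packs against MED7 (chr11:72214819-72215320), stood at 1390.4, 1454 and 1474 in NTC, 1233, 1068 and 1039 with #2 and 1070.3, 1146 and 1136 with #4, a fold change of -0.37 ± 0.05 (adjusted p = 1.9e-07). This peak also lies near an end of the gene 4930563E22Rik. Med21 forms the hinge of the module with MED7. Its start (chr6:146642386-146642887) stood at 2501, 2721 and 2658 in NTC, 2325, 2193 and 2136 with #2 and 2455, 2474 and 2450.4 with #4. The change was -0.24 ± 0.05 with #2 (adjusted p = 3.4e-05) and -0.09 ± 0.05 with #4 (adjusted p = 0.13), and the difference of #4 from #2 was 0.15 ± 0.05 (adjusted p = 0.016).

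The remaining middle starts did not pass the test in the mean of both hairpins. Med7, the other partner in the hinge, stood at 1526 ± 34.5 in NTC, 1431 ± 83.2 with #2 and 1521 ± 91.1 with #4 (SD, n = 3). Med10, a small subunit of the hook that meets the polymerase, stood at 734 ± 34.1, 712 ± 36.0 and 741 ± 6.15. Med9 was lower with #4 only (-0.17 ± 0.06, adjusted p = 0.028), against 0.00 ± 0.06 with #2 (adjusted p = 0.97). With equal totals Med7 (-0.13, adjusted p = 0.030) and Med9 (-0.16, adjusted p = 0.0098) passed as lower in the mean, and Med9 also with quantile normalization (-0.14, adjusted p = 0.022) and without NTC replicate 1 (-0.15, adjusted p = 0.044). Away from the ends, a peak at -34.4 kb from the Med9 start (negative distances lie before a start; chr11:59913608-59914109) rose from 943 ± 54.0 to 1194 ± 71.8 with #2 and 1086 ± 71.3 with #4, a change of 0.27 ± 0.06 (adjusted p = 0.00011). A weak peak 20.3 kb from the Med21 start fell by 0.31 (adjusted p = 0.038), a call lost with quantile normalization, without any 1 of the NTC libraries, without #2 replicate 2 or 3 and without #4 replicate 1. The 6 gene-body peaks of Med26 had means of 43.1 to 390.0 counts and none was called.

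**Figure D3:**
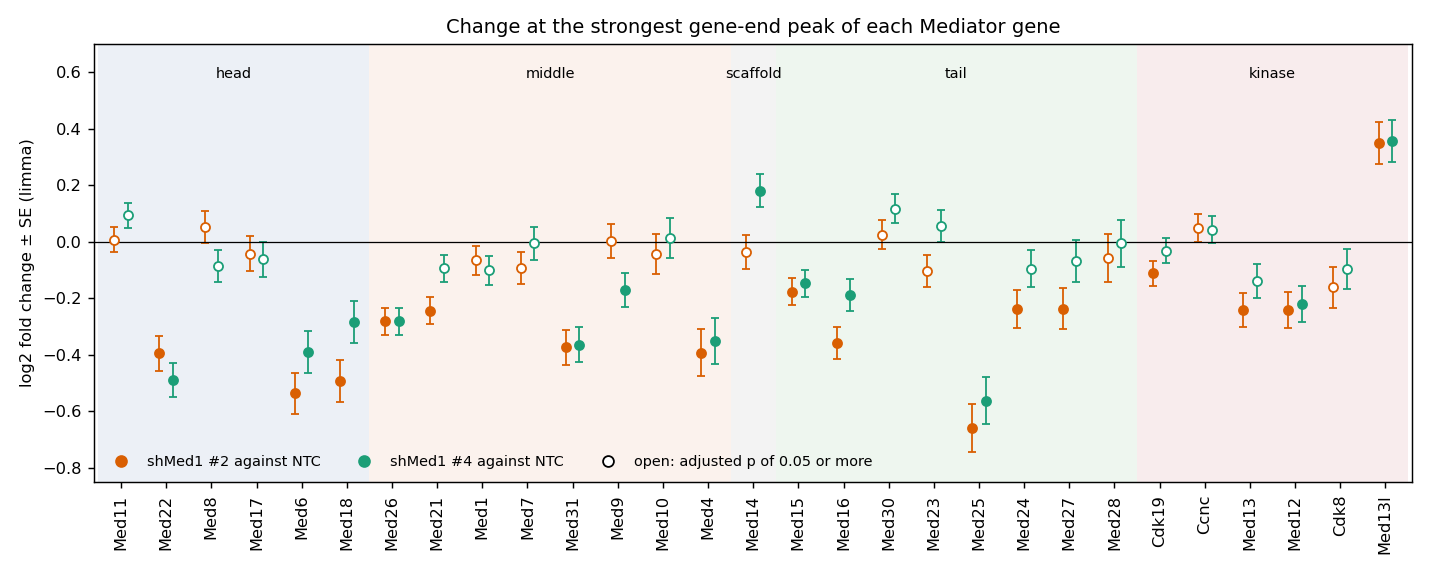
Log2 fold change against NTC, with limma's standard error, at the strongest gene-end peak of 29 Mediator genes for #2 and #4; filled points have an adjusted p under 0.05. Filled points of Med13l lie above 0 for both hairpins, that of Med14 above 0 for #4, and the other filled points below 0.

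The start of Med14, the backbone that ties head, middle and tail together (chrX:12761735-12762236), stood at 1270.4, 1358 and 1175 in NTC, 1220.3, 1213 and 1269 with #2 and 1393, 1410.1 and 1505 with #4. All #4 libraries were above all NTC and #2 libraries, with a change of 0.18 ± 0.06 for #4 (adjusted p = 0.016) and -0.04 ± 0.06 for #2 (adjusted p = 0.64). #4 exceeded #2 by 0.22 ± 0.06 (adjusted p = 0.0051). The mean of both hairpins differed from NTC by 0.07 ± 0.05 (adjusted p = 0.26), and by -0.01 with equal totals.

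In the tail, 4 of the 9 gene-end peaks fell and none rose, while of the 31 other peaks 13 rose and 1 fell. At gene ends 44.4% were thus lower, against 32.7% lower and 14.3% higher of all gene-end peaks. Of the others 41.9% were higher and 3.23% lower, against 23.6% and 14.8% of all other peaks. With equal totals the other tail peaks were higher at 9 and lower at 3, with no share of all other peaks counted under that scaling. The largest fall was at Med25, which binds activation domains of the VP16 type. Its start peak (chr7:44892454-44892955) stood at 808, 946 and 1047 in NTC, 666, 585 and 521 with #2 and 684, 638 and 569 with #4. The lowest NTC library was above the highest hairpin library, and the change was -0.66 ± 0.08 for #2 (adjusted p = 8.4e-09) and -0.56 ± 0.08 for #4 (adjusted p = 7.2e-07). A second gene-end peak of Med25, 580 bases inside the gene (chr7:44891593-44892094), stood at 360.2 ± 17.4 in NTC and changed by 0.02 ± 0.08 (adjusted p = 0.85). Further in, 3.56 kb from the start, a peak rose with #2 by 0.35 ± 0.07 (adjusted p = 2.6e-05) and stood 0.06 ± 0.07 from NTC with #4 (adjusted p = 0.50). Its mean change of 0.21 ± 0.06 lost its call with equal totals (0.13) and without NTC replicate 3 (0.16).

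Med16, a tail subunit built of repeated propeller blades, showed both directions. Its start (chr10:79908443-79908944) stood at 1624, 1893 and 1867 in NTC, 1419.7, 1365 and 1403 with #2 and 1616, 1541 and 1560.1 with #4, below NTC in all 6 hairpin libraries (-0.27 ± 0.05, adjusted p = 1.0e-05). A gene-body peak 11.9 kb away (chr10:79896807-79897308) stood at 125, 109.7 and 97.9 in NTC, 151, 157 and 188 with #2 and 174, 150.1 and 171 with #4. It rose by 0.57 ± 0.12 (adjusted p = 0.00015), from a level far below that at the start. Med15, the target of sterol regulators and other activators, fell at its start (chr16:17722425-17722926) from 2845 ± 138 to 2516 ± 96.3 with #2 and 2570.1 ± 118 with #4 (-0.16 ± 0.04, adjusted p = 0.0013). Before that start, a flanking peak at -4.51 kb fell by 0.36 (adjusted p = 0.0017). The next, at -10.2 kb, rose by 0.14 ± 0.04 (adjusted p = 0.0080), a call lost with equal totals (0.06), with quantile normalization (0.04) and without NTC replicate 3 (0.12, adjusted p = 0.057).

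Med24, which sits with MED16 and MED23 and is linked to nuclear receptor signalling, held the tail peak with the lowest adjusted p. The gene-body peak at chr11:98705872-98706373 stood at 896, 761 and 887 in NTC, 1262, 1379 and 1489 with #2 and 1111, 1107 and 1132 with #4. Every hairpin library was above every NTC library, with a change of 0.70 ± 0.07 for #2 (adjusted p = 2.2e-12) and 0.40 ± 0.07 for #4 (adjusted p = 4.5e-06). A stronger body peak close by (chr11:98709120-98709621) rose from 2373 ± 73.1 by 0.19 ± 0.04 (adjusted p = 9.5e-05). The gene-end peak of Med24 fell from 902 ± 17.6 by 0.17 ± 0.06 (adjusted p = 0.019), and this call was lost without any 1 of the NTC libraries or #2 replicate 3 (adjusted p up to 0.079).

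Med23 binds phosphorylated ELK1 and other signal-dependent factors. Its gene-body peak (chr10:24885990-24886491) stood at 305, 286 and 299.8 in NTC, 184, 245 and 260.3 with #2 and 343, 390.4 and 362 with #4. The #2 libraries were below NTC and the #4 libraries above it, with no overlap: -0.38 ± 0.11 for #2 (adjusted p = 0.0036) and 0.30 ± 0.11 for #4 (adjusted p = 0.033). The mean over both hairpins was therefore -0.04 ± 0.09. Its gene-end peak stood at 1516 ± 9.48 in NTC and was not called against NTC with either hairpin (adjusted p = 0.14 and 0.49).

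Med27, Med28, Med29 and Med30 are subunits that join tail to head and are placed in the head in some structures. Med27 had 12 peaks, of which 4 rose and none fell. At its start (chr2:29346505-29347006) the level was 778 ± 41.5 in NTC, 661 ± 59.2 with #2 and 742 ± 25.7 with #4, lower with #2 (-0.24 ± 0.07, adjusted p = 0.0076). The mean of both hairpins there was -0.15 ± 0.06 (adjusted p = 0.051). It passed as lower in 7 alternatives: equal totals (-0.23, adjusted p = 0.0031), quantile normalization (-0.22, adjusted p = 0.0044), a minimum mean of 50, voom weights, and without NTC replicate 1, #2 replicate 2 or #4 replicate 1. The strongest body peak (chr2:29422512-29423013) stood at 1096, 1109 and 1086 in NTC, 1348, 1286 and 1485 with #2 and 1298, 1276 and 1304 with #4 and rose by 0.28 ± 0.05 (adjusted p = 1.7e-05), with no overlap between NTC and the hairpins. The start of Med28 stood at 579 ± 21.7, 559.9 ± 82.2 and 577 ± 36.7 and was not called. The Med30 gene-end peak stood at 1678 ± 53.8, 1708 ± 43.3 and 1820.1 ± 34.0 and was not called. A flanking peak of Med30 (chr15:52707018-52707519) rose by 0.62 ± 0.12 with #2 (adjusted p = 2.1e-05) and by 0.13 ± 0.12 with #4, which did not pass (adjusted p = 0.44). Without NTC replicate 3 its mean change was 0.27 (adjusted p = 0.067).

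Placing these 4 genes in the head and Med14 in the tail gave 7 higher and 3 lower peaks of 28 in the head, and 6 higher and 5 lower of 23 in the tail. In the main assignment the head had none higher and 3 lower of 9, and the tail 13 higher and 5 lower of 40. The count of higher peaks per module thus moved with where the 4 genes stood, and modules were not tested against each other.

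The kinase module held 82 of the 156 peaks, 46 of them at Med12l and Med13l, which are long genes. Of its 9 gene-end peaks 1 rose and 3 fell, and of the 73 others 17 rose and 10 fell. With equal totals the others were 15 higher and 15 lower, again with no share of all other peaks counted under that scaling. In shares, 33.3% of its gene ends were lower and 11.1% higher, against 32.7% and 14.3% of all gene-end peaks. Of the others 23.3% were higher and 13.7% lower, against 23.6% and 14.8% of all other peaks, so its shares lay near those of the whole table. Med12, which activates the kinase through cyclin C, had its start (chrX:101273894-101274395) at 1069, 1203 and 1227 in NTC, 987, 1004 and 961 with #2 and 976, 966 and 1061 with #4. The change was -0.24 ± 0.06 with #2 (adjusted p = 0.0018) and -0.22 ± 0.06 with #4 (adjusted p = 0.0072), with all hairpin libraries below the NTC libraries. No peak was listed within 1 kb of a Med12l end, and its nearest inner peak lay 52.4 kb from a start.

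Med13 and Med13l encode the arm that joins the kinase to the core. The Med13 start region held 2 peaks. The stronger (chr11:86358057-86358558), at -712 bases from the start, stood at 1269.5, 1355 and 1364 in NTC, 1209.8, 1092 and 1073 with #2 and 1222, 1225 and 1171 with #4 and fell by 0.19 ± 0.05 (adjusted p = 0.0027). The weaker (chr11:86357087-86357588), at 258 bases, stood at 309.8, 304 and 393 in NTC, 248, 226 and 188 with #2 and 227, 300.3 and 272 with #4 and fell by 0.47 ± 0.10 (adjusted p = 0.00019). All hairpin libraries were below all NTC libraries in both. Med13l went the other way. Its start peak (chr5:118559833-118560334) stood at 659, 721 and 673 in NTC, 989, 863 and 775 with #2 and 808, 901 and 925 with #4, with every hairpin library above every NTC library. The change was 0.35 ± 0.07 with #2 (adjusted p = 0.00016) and 0.36 ± 0.07 with #4 (adjusted p = 0.00020), also with equal totals (0.28). A second Med13l start peak (chr5:118560680-118561181) stood at 468 ± 32.9 and was not called (-0.08 ± 0.08, adjusted p = 0.44). The difference between the paralogues was not tested.

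Inside Med13l the highest level and the largest mean rise among all 156 Mediator peaks coincided. The peak 52.6 kb from the start (chr5:118613047-118613548) stood at 2969.7, 2730.3 and 2626 in NTC, 4009.7, 4352 and 4739 with #2 and 4036, 4095 and 3927 with #4. It was 1.57 times the NTC level with #2 and 1.45 times with #4, changes of 0.65 ± 0.05 and 0.54 ± 0.05 on the log2 scale (adjusted p = 3.5e-16 and 8.1e-13). Away from the ends of Med13l, 7 of 21 peaks rose and 1 fell. The fall, at a flanking peak 221 kb from the start, was 0.43 (adjusted p = 0.012) from 128 ± 14.4 counts; the call was lost without NTC replicate 2 (-0.39) or 3 (-0.38). At Med13 the other peaks were called higher at 3 and lower at 2. The strongest of them, at -23.0 kb from the start, rose from 2136 ± 35.2 by 0.18 ± 0.04 (adjusted p = 0.00055), and by 0.08 with quantile normalization, which was not called. A weak body peak fell from 159 ± 35.7 by 0.47 (adjusted p = 0.0053), a call lost without NTC replicate 3 (-0.32).

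Med12l had 23 peaks, several of them also inside P2ry12, P2ry13 or P2ry14, purinergic receptor genes within its span, so those cannot be given to Med12l alone. In the mean of both hairpins 3 rose and 5 fell. The one with the highest level (chr3:59120898-59121399, also inside P2ry14) stood at 1505, 1451 and 1435 in NTC, 2122, 1981 and 2249.7 with #2 and 1713, 1763 and 1527 with #4. The change was 0.53 ± 0.06 with #2 (adjusted p = 5.1e-11) and 0.19 ± 0.06 with #4 (adjusted p = 0.0093). At chr3:59203793-59204294 the libraries stood at 177, 168 and 172 in NTC, 291, 279.9 and 277 with #2 and 170.0, 170.2 and 150.2 with #4. All #2 libraries were above the rest, and #4 overlapped NTC. Among the falls, chr3:59059147-59059648 went from 358 ± 38.1 by 0.34 (adjusted p = 0.0017) and chr3:59247978-59248479, also inside P2ry12, from 620.4 ± 16.3 by 0.25 (adjusted p = 0.0030).

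**Figure D4:**
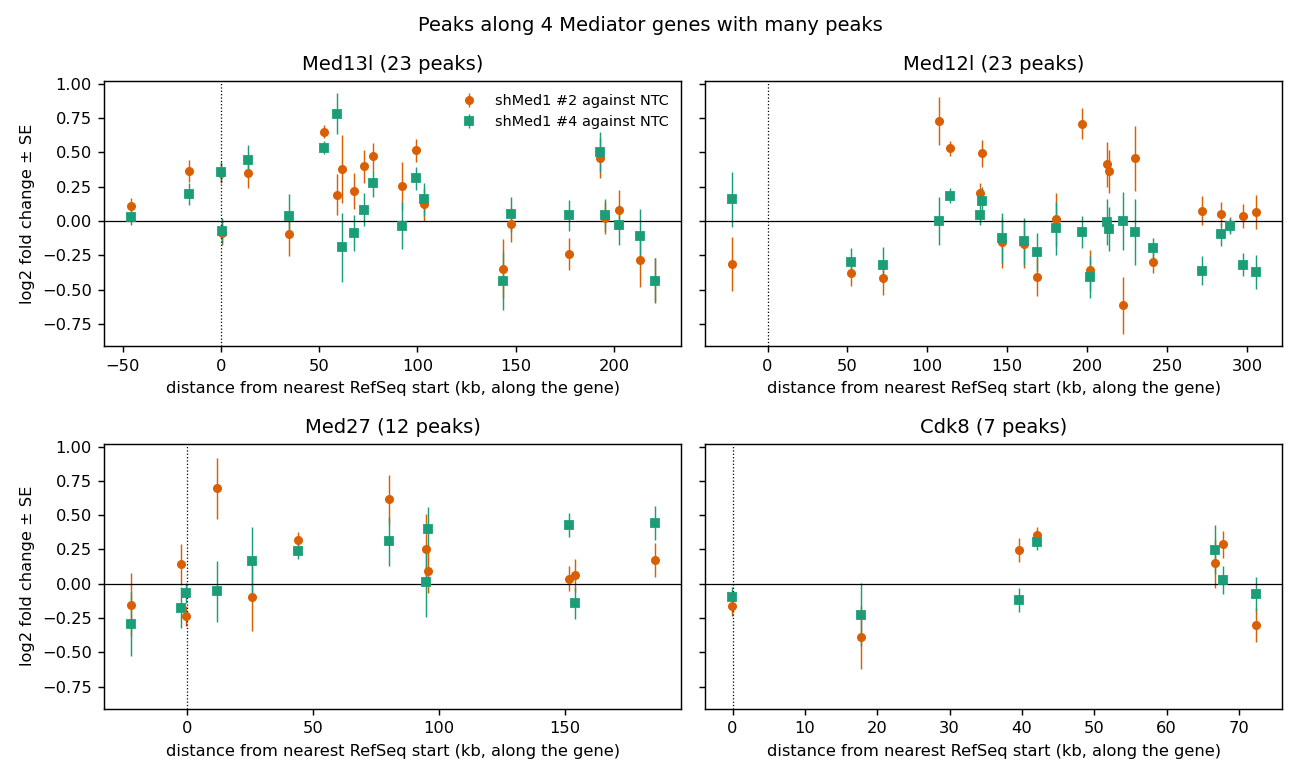
Log2 fold change against NTC with limma's standard error for each peak of Med13l, Med12l, Med27 and Cdk8, by distance from the nearest RefSeq start in kb; circles are #2 and squares #4. Peaks of Med13l within about the first 100 kb lie mostly above 0, and those of Med12l lie on both sides, with #2 and #4 apart at several.

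Of the kinases, Cdk8 and Cdk19 are alternative catalytic subunits and Ccnc encodes their cyclin. The Cdk8 start (chr5:146230869-146231370) stood at 919.7 ± 30.6 in NTC, 825 ± 86.6 with #2 and 862 ± 66.0 with #4 and was not called (-0.13 ± 0.06, adjusted p = 0.092). It passed as lower with equal totals (-0.21, adjusted p = 0.0059), with quantile normalization (-0.20, adjusted p = 0.0075) and without #2 replicate 1 (-0.17, adjusted p = 0.016) or #4 replicate 3 (-0.16, adjusted p = 0.043). The gene-end peak of Cdk19 (chr10:40348979-40349480), the highest of all members, stood at 3137 ± 108, 2904 ± 95.5 and 3069 ± 49.6. It was lower with #2 (-0.11 ± 0.04, adjusted p = 0.033) and not called with #4 (adjusted p = 0.62). Its mean change of -0.07 ± 0.04 was not called (adjusted p = 0.12), and passed as lower with equal totals (-0.15, adjusted p = 0.00072) and with quantile normalization (-0.22, adjusted p = 1.2e-06). The Ccnc start stood at 2093 ± 51.1, 2164 ± 6.19 and 2159 ± 126 and was not called; its sign was positive here and negative with equal totals and with quantile normalization. Each of these genes held a larger change away from its ends. In Cdk8 a body peak 42.1 kb from the start (chr5:146273074-146273575) stood at 1679, 1557 and 1462 in NTC, 1922, 2113 and 1982 with #2 and 1924, 1943 and 1917 with #4, higher in every hairpin library (0.33 ± 0.05, adjusted p = 7.9e-08). Beside Cdk19 a flanking peak (chr10:40510607-40511108) stood at 1242, 1069 and 1033 in NTC, 1748, 1764 and 1725 with #2 and 1338, 1164 and 1197 with #4. It rose with #2 by 0.65 ± 0.06 (adjusted p = 3.1e-12), while the value for #4 was 0.15 ± 0.06 (adjusted p = 0.067). Before Ccnc a flanking peak fell by 0.36 (adjusted p = 0.011) from 224 ± 13.9; without NTC replicate 2 the change was -0.31 (adjusted p = 0.078). In Med12 a body peak fell by 0.37 (adjusted p = 0.034) from 125 ± 25.5; without NTC replicate 2 the change was -0.21 (adjusted p = 0.35), and the call was also lost with quantile normalization (-0.30) and without NTC replicate 3 or #2 replicate 3.

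Peaks at the starts of 3 members were given by the rule to the neighbouring gene that shares the region, and were named after their values were seen. The one at Med20, the partner of MED18 in the jaw (chr17:47611260-47611761, given to Bysl), stood at 1398, 1447 and 1564 in NTC, 1245, 1121 and 1086 with #2 and 1263, 1187 and 1081 with #4. All hairpin libraries were below all NTC libraries (-0.34 ± 0.05, adjusted p = 1.7e-06). The one at Med19, a middle subunit known for its contacts with the repressor REST (chr2:84678025-84678526, given to Tmx2), stood at 2712 ± 10.2 in NTC, 2596 ± 109 with #2 and 2781 ± 63.6 with #4 and was not called (-0.01 ± 0.04, adjusted p = 0.80). It passed as lower with equal totals (-0.09, adjusted p = 0.040) and with quantile normalization (-0.14, adjusted p = 0.0014). The one at Med29 (chr7:28392661-28393162, given to Paf1) was lower with #2 (-0.22 ± 0.05, adjusted p = 0.00015) and not called with #4 (-0.01 ± 0.05, adjusted p = 0.88). Med29 itself kept 3 peaks, of which 2 rose. The flanking one (chr7:28382881-28383382) stood at 1186, 1111 and 1164 in NTC, 1570.0, 1556 and 1708 with #2 and 1361, 1333 and 1241 with #4, with every hairpin library above NTC (0.33 ± 0.05, adjusted p = 4.2e-07).

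The 2 hairpins were also compared with each other directly, a test that does not use the NTC mean. Of the 156 peaks, 10 were higher and 16 lower with #4 than with #2, against 8.48% and 13.0% of all peaks. At gene ends 5 were higher and 1 lower, against 11.5% and 3.69% of all gene-end peaks. At other peaks 5 were higher and 15 lower, against 7.90% and 14.8%. Without #2 replicate 2 the higher count over all 156 was 6, and over all peaks it went from 6439 to 4586. Med12l alone held 7 of the 16 peaks that were lower with #4.

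The largest differences, taken 2 each way, lay in gene bodies. At Med12l (chr3:59203793-59204294) #4 was lower than #2 by 0.79 ± 0.12 (adjusted p = 7.4e-07). At Med27 (chr2:29358671-29359172) the libraries stood at 54.6, 57.2 and 55.5 in NTC, 80.8, 113 and 82.1 with #2 and 78.9, 43.8 and 44.5 with #4, a difference of -0.75 ± 0.22 (adjusted p = 0.0099). This is a weak peak, and the call was lost without #2 replicate 2 or #4 replicate 2 or 3 (adjusted p up to 0.099). In the other direction the Med23 body peak was higher with #4 by 0.68 ± 0.11 (adjusted p = 3.5e-06). At Med12l (chr3:59229145-59229646, also inside P2ry12) the libraries stood at 87.7, 64.5 and 71.7 in NTC, 44.8, 44.9 and 55.0 with #2 and 70.7, 68.8 and 83.5 with #4, a difference of 0.61 ± 0.21 (adjusted p = 0.028). Here #2 was below NTC and #4, and the call was lost without #2 replicate 1 or 2 or #4 replicate 3 (adjusted p up to 0.12).

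**Figure D5:**
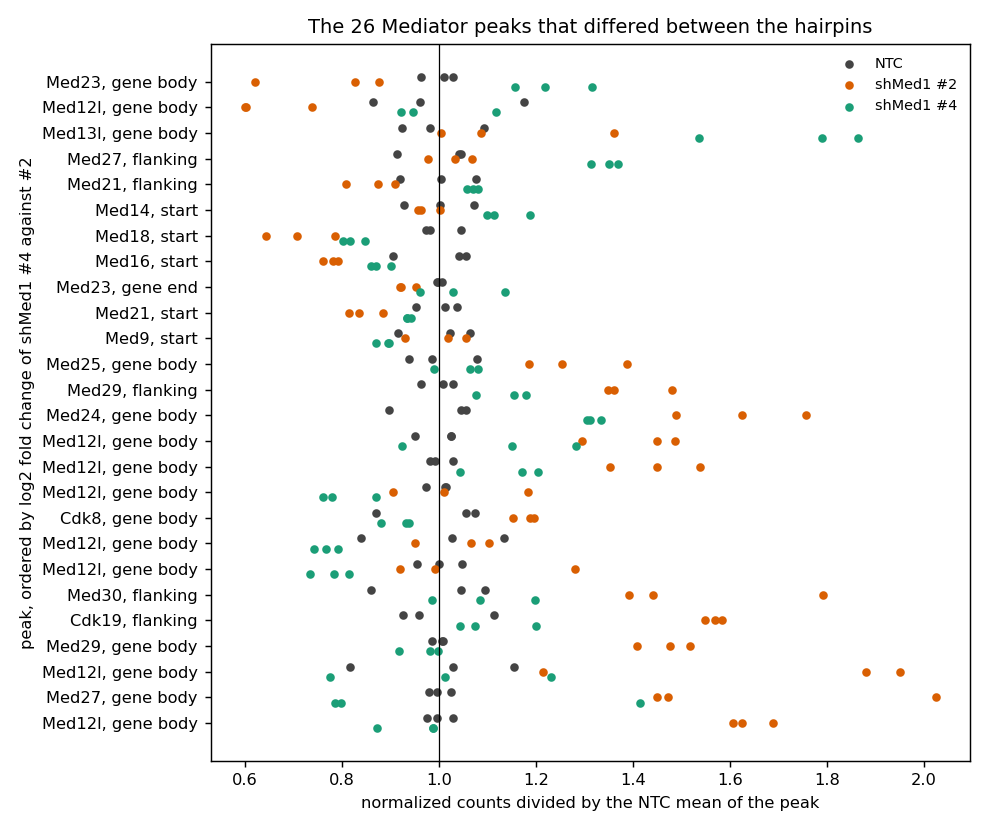
Normalized counts divided by the NTC mean of the peak, for the 26 Mediator peaks that differed between #4 and #2; points are single libraries (n = 3 per group), and peaks run from higher with #4 at the top to lower with #4 at the bottom. In the lower part the #2 points mostly lie to the right of the NTC points and the #4 points near or left of them.

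The gene-end peaks that differed between the hairpins were those of Med18, Med21, Med14, Med16 and Med23, higher with #4, and Med9, lower with #4. At Med18, Med21 and Med16 the level with #4 lay between #2 and NTC in the group means. Beside these, the Cdk19 flanking peak was lower with #4 than with #2 by 0.50 (adjusted p = 1.4e-08), and a Med29 body peak (chr7:28390231-28390732, a peak named after its values were seen) by 0.60 (adjusted p = 1.9e-09). That peak stood at 671, 687 and 685 in NTC, 959, 1005 and 1034 with #2 and 679, 624 and 669 with #4, so it was high with #2 only.

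Genes that work with Mediator were set beside the members, from 4 lists of 51 genes with 350 peaks. In the mean of both hairpins 62 of these peaks were higher and 59 lower, and at their 50 gene ends 4 were higher and 21 lower, with a median log2 fold change of -0.11. In shares, 17.7% were higher and 16.9% lower, against 22.1% and 17.7% of all peaks, and at gene ends 8% and 42%, against 14.3% and 32.7% of all gene-end peaks. For elongation factors and the kinases of the polymerase, 22 of 106 peaks were higher and 16 lower, and at gene ends 2 of 19 were higher and 7 lower. Examples from these lists were chosen after their values were seen. The lower ones included Ccnt2, a cyclin of the elongation kinase P-TEFb (-0.25 ± 0.04), Mllt3, a subunit of the super elongation complex (-0.27 ± 0.05), and Supt5, part of the elongation factor DSIF (-0.24 ± 0.05). Ell2, another elongation factor, was higher (0.16 ± 0.04). For cohesin and its loader, 2 of 35 peaks were higher and 7 lower, with 0 and 2 of 8 at gene ends. For acetyltransferase coactivators, 8 of 54 were higher and 6 lower, with 1 and 5 of 10 at gene ends; Crebbp (-0.28 ± 0.05) and Ep300 (-0.18 ± 0.05) each had a lower gene-end peak. For nuclear receptors, partners of MED1, 30 of 155 were higher and 30 lower, with 1 and 7 of 13 at gene ends. The lowest of them was Nr1h2, a receptor for oxysterols (-0.56 ± 0.07, adjusted p = 1.1e-09), and the higher one was Vdr, the vitamin D receptor (0.16 ± 0.05, adjusted p = 0.0096). The lists were chosen with earlier results of these data known, and no difference between them and the Mediator genes was tested.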

How the data were processed

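ATAC-seq reads of 9 D2A1-d libraries, 3 per group, were used as the authors had counted them. Per the submitters' processing notes, Trim Galore, BWA, MACS2 and featureCounts of Subread were used with mm10; no source used here gives their versions, filters or exclusions. The authors deposited 1 table of signal per peak, in counts that had been scaled by size factors: 100% of values were whole multiples of 1 read per library (tolerance 0.01), with size factors of 0.799 to 1.22 and 34.8 to 53.7 M reads in peaks. Peak coordinates are printed as deposited, which do not state whether they count from 0 or 1. Exons and introns were not annotated here.

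From these values limma 3.58.1 (R 4.3.3, trend on log2(value + 1)) was fitted to the 75930 peaks with a mean of at least 10, with 1 mean per group and Benjamini-Hochberg adjustment at 0.05, two-sided; the pseudocount of 1 slightly understates changes of low peaks. Assignment, summaries and plots used Python 3.11.15, pandas 2.3.3, numpy 2.4.6 and matplotlib 3.10.9. The fit was tested on simulated data with known changes at a small share of peaks and the same scaling in every group. That run does not bear on calls that depend on the scaling. Alternatives were another pseudocount (8), other filters, equal totals, quantile normalization, a replicate block, each library left out, other assignments and windows, and, added after the data were seen, voom weights on worked-out reads. Named peaks were, per gene, the strongest gene-end peak, all peaks of Med1 and Med4, up to 3 other peaks each way per module with the smallest adjusted p, and the 2 largest differences each way between hairpins. Added after values were seen were each gene's other peak with the smallest adjusted p in each direction, the starts of Med19, Med20 and Med29, and a few further peaks and partner genes. The members and lists were chosen with earlier results of these data known.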

Additional observations from a re-analysis of the deposited data

Results flagged for a closer look

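At 16 of the 57 named Mediator peaks the effect of #4 against NTC differed from that of #2, by limma's test of #4 against #2 (adjusted p under 0.05 over 75930 peaks). Over all peaks, 8.48% were higher and 13.0% lower with #4 than with #2. The 2 largest differences each way were named for that difference, so the count is partly set by the choice of peaks. Values are the log2 fold change of #4 over #2. At gene ends it was 0.21 at Med18, 0.15 at Med21, 0.17 at Med16, 0.22 at Med14 and 0.16 at Med23, all higher with #4, and -0.17 at Med9. In gene bodies it was 0.68 at Med23, -0.30 at Med24, -0.29 at Med25 and -0.75 at Med27. In flanking peaks it was -0.30 at Med29, -0.49 at Med30 and -0.50 at Cdk19. Within Med12l it was -0.35, -0.79 and 0.61 at the peaks starting at 59120898, 59203793 and 59229145. Of the Med12l peaks, the first also lies in P2ry14 and the last in P2ry12. Both hairpins are aimed at the same gene, and how far each lowered Med1 RNA was not analysed here.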

How the results depend on the processing

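Of 64 results for single peaks, 43 were called. Of these, 30 kept their direction and call in every alternative run on them (16 for results against NTC and 17 for those of #4 against #2). No called result changed direction. Many peaks away from gene ends were named for a small adjusted p or a large hairpin difference, so these counts do not stand for all Mediator calls. The lower count of the mean of both hairpins, 26, was 43 with equal totals, and the lower count at gene ends, 14, was 22. Over all peaks the lower count went from 13452 to 21010 with equal totals. Giving every peak to its nearest gene end moved the higher count for #2 from 37 to 24 and the lower count of #4 against #2 from 16 to 9. A gene-end window of 2000 bases gave 2 higher gene-end peaks in place of 1. Leaving out each library gave 17 to 31 lower peaks for the mean of both hairpins (lowest without NTC replicate 3, when the lower count over all peaks was 8325 in place of 13452), 10 to 24 lower for #4 (lowest without NTC replicate 2 or 3) and 6 to 10 higher for #4 against #2 (lowest without #2 replicate 2). Uncalled peaks changed sign with equal totals at Med11 (-0.027), Med14 (-0.0055), Med30 (-0.0064) and Ccnc (-0.032), and with quantile normalization at Med11 (-0.077) and Ccnc (-0.047). With single libraries left out, uncalled values ranged over both signs at the gene ends of Med8 (-0.032 to 0.0027), Med10 (-0.041 to 0.023), Med23 (-0.055 to 0.0052) and Med28 (-0.089 to 0.0071), at the Med4 flanking peak (-0.15 to 0.015), the Med23 body peak (-0.091 to 0.032) and the Med19 start (-0.029 to 0.0012). The cause was not tested.

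A replicate block gave 32 higher and 26 lower peaks for the mean, 36 and 29 for #2, and 24 and 21 for #4. At gene ends it gave 1 and 14, and it moved no count by over 1.5 times. Same-numbered libraries deviated with correlations of -0.084 to 0.033 (9 pairs), against -0.036 to 0.076 for others (18 pairs). No effect shared by same-numbered libraries was visible in these values. Whether such libraries were prepared together is not known from the labels. Voom weights on worked-out reads, added after the data were seen, gave 32 higher and 27 lower for the mean. The planned count tests of edgeR and DESeq2 were not run. The lowest values above 0 stood for 2 or 3 reads, so the size of 1 read was worked out and could not be read directly from the values. The voom weights rest on the same worked-out reads, so this does not by itself bar a count test. Depth limits the weak peaks: 150 of the 156 had a mean of at least 50 normalized counts.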
